A study of Mus musculus with 5 samples.

Results

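CCG1423, a small-molecule inhibitor of MRTF signalling, was added to B16F1 mouse melanoma cells that received TGF-β1, and RNA of that culture was set against RNA of a culture given TGF-β1 without it. The comparison rests on 2 of the 5 arrays of the series, 1 array on each side. It took in every non-control probe that the scanner software called well above background on at least 1 of the 2 arrays. This held for 31509 of 56595 probes and, through 1 probe per gene, for 14057 of the 22907 genes that could be named. All values are normalized levels, meaning the log2 of the scanner's processed signal minus the array's 75th percentile, so that a level of 0 is the 75th percentile of that array. With 1 array on each side no difference has a replicate check, and no p-value is given for any single gene. A gene was counted as higher or lower at a difference of 2-fold or more.

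The array of interest came from wild-type B16F1 cells with 10 ng/ml TGF-β1 and 10 µM CCG1423 for 2 days, and its counterpart from wild-type cells with the same dose of TGF-β1 for 2 days. The other 3 arrays held wild-type cells with vehicle and 2 clones labelled Tmsb4x KO, both given TGF-β1 at the same dose and time. They are used below only to place the levels. The title, the description and the source name of the CCG1423 array give both agents, while its treatment field names CCG1423 alone, and it was taken as both. Each difference is read as that of the inhibitor on top of TGF-β1, which rests on that choice between the labels, and no other array has CCG1423. Knockout is the word in the labels and the title and knockdown that in the design text, each knockout array is 1 clone, and the labels name no separate cultures behind a group.

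TGF-β1 binds a pair of receptor kinases that phosphorylate SMAD proteins, which enter the nucleus and switch on matrix, adhesion and feedback genes. It also drives actin assembly through small GTPases. MRTF-A and MRTF-B, encoded by Mrtfa and Mrtfb, are coactivators held in the cytoplasm by monomeric actin, and when monomers are used up they enter the nucleus and act with the transcription factor SRF on genes of the contractile cytoskeleton. CCG1423 was developed as a blocker of MRTF-dependent transcription. In melanoma cells the MRTF-SRF and SMAD programmes are studied for their part in motility, invasion and the loss of pigment cell traits.

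The gene groups described below have known regulators with short DNA elements, and promoter stretches that hold them are shown for some members of these groups. Hmgcs1, Ifit1 and Isg15 among them differed by -0.89, -1.88 and -1.40 between the 2 arrays compared. Each stretch was cut from the RefSeq promoter table of build GRCm38.p6, which holds 300 bases per start site, 250 before it and 50 after it, for 27025 genes. It is written 5′ to 3′ on the gene's own strand with the matched letters in capitals. Matches were looked for on both strands, are a description of the letters only, and positions are counted from the start site.

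The first set holds the element TTGCATCA of the stress factors CHOP and ATF4. It comes from Nupr1 (chr7:126625538-126625615, minus strand, match at -110), Fgf21 (chr7:45615587-45615664, minus strand, match at -139), Atf3 (chr1:191183401-191183478, minus strand, match at -110) and Chac1 (chr2:119351014-119351091, plus strand, match at -193).
Nupr1: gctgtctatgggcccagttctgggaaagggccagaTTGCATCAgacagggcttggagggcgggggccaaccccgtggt
Fgf21: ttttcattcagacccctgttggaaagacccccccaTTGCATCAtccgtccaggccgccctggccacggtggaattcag
Atf3: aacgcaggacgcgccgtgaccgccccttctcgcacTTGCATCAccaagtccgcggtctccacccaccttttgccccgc
Chac1: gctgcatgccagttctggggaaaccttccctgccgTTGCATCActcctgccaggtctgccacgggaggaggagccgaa
Of 30 genes of the integrated stress response list with a promoter in the table, 8 held this element (26.7%), against 1.03% of all genes in it. The other 4 were Avil, Jdp2, Pycr1 and Vldlr. Among the 11202 genes of the comparison with a promoter, 0.803% held this element. The share was 1.98% of the 656 that were higher with CCG1423 and 0.395% of the 759 that were lower.

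The second set shows elements of replication and sterol genes. Mcm5 (chr8:75109325-75109402, plus strand, match at -149) holds the E2F letters TTTGGCGC on the opposite strand. Mcm7 (chr5:138172006-138172083, minus strand, match at -165) and Cdc6 (chr11:98907978-98908055, plus strand, match at -138) hold the second E2F form, TTTCCCGC, also on the opposite strand. Hmgcs1 (chr13:119690179-119690257, plus strand, match at -137) holds the SREBP letters TCACNCCAC.
Mcm5: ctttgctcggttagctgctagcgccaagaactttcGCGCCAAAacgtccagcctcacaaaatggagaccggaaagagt
Mcm7: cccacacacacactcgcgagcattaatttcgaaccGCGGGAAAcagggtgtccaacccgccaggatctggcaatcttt
Cdc6: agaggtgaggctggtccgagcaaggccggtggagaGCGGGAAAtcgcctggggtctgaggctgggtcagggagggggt
Hmgcs1: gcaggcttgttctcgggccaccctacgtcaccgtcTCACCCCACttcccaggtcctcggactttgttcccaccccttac
In the list of DNA replication and G1/S genes 7 of 37 promoters held TTTGGCGC (18.9%, against 0.585% of all genes) and 8 held TTTCCCGC (21.6%, against 1.24%). Among the 11202 genes of the comparison with a promoter, 1.03% held TTTGGCGC, with 0.457% of the higher and 1.58% of the lower ones. For TTTCCCGC these shares were 2.18%, 0.915% and 2.37%. Only Hmgcs1 among 16 sterol synthesis enzymes held the SREBP letters, which 1.44% of all genes held, while the CCAAT box stood in 15 of those 16 and in 41.1% of all genes. In the genes of the comparison the CCAAT box stood in 43.1%, with 42.8% of the higher and 45.1% of the lower ones. For the SREBP letters these shares were 1.46%, 0.610% and 1.71%.

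The third set shows the interferon-stimulated response element, searched as GAAANNGAA, in Irgm1 (chr11:48871401-48871485, minus strand, match at -30), Ifit1 (chr19:34640745-34640848, plus strand, match at -109) and Isg15 (chr4:156200841-156200931, minus strand, match at -78). Overlapping matches run together in the capitals.
Irgm1: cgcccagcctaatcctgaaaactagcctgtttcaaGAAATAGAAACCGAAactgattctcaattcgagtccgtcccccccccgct
Ifit1: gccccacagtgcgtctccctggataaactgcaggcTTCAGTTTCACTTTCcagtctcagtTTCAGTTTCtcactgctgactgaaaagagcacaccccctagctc
Isg15: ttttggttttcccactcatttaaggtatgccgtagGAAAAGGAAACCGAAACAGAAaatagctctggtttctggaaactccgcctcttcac
These letters stood in 21 of 33 interferon response promoters (63.6%) and in 9.76% of all genes. The last set shows the CArG box, the element bound by SRF, in Myl9 (chr2:156775268-156775347, plus strand, match at -161), Vcl (chr14:20929148-20929215, plus strand, match at -227) and Actg1 (chr11:120348541-120348620, minus strand, match at -90).
Myl9: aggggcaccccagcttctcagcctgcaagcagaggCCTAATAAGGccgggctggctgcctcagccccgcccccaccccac
Vcl: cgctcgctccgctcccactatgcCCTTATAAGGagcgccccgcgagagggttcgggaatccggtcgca
Actg1: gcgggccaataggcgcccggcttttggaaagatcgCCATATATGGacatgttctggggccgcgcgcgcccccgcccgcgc
The CArG box stood in 10 of 32 promoters of the MRTF-SRF target list (31.3%) and in 1.81% of all genes. The members shown all lay below 0 with CCG1423, while Cnn2 (0.59) and Srf (0.14), which also hold the box, lay above it. Among the genes of the comparison with a promoter, 16 of 656 that were higher with CCG1423 held it (2.44%) and 8 of 759 that were lower (1.05%), beside 1.66% of all 11202.

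Across all genes, 845 of 14057 were at least 2-fold higher with CCG1423 than with TGF-β1 alone (6.01%) and 981 were at least 2-fold lower (6.98%), 13% in either direction. The median difference was -0.03, with the 5th and 95th percentiles at -1.15 and 1.10 on the log2 scale. The same count between the 2 knockout clones, which share labels other than the clone, was 7.57% of 13849 genes. At 4-fold or more the order turned, with 220 genes higher and 165 lower. The split depends on the scale between arrays: on the constants of the deposited values, 33.5% of the genes past 2-fold were higher, in place of 46.3%, because the median of all genes then moved to -0.16. Background correction moved dim genes most. With normexp correction and its offset, which draw low levels together, 2.52% of the same genes were 2-fold higher and 3.68% lower. Of 164 genes past 2-fold that the naming rule covers, 128 stayed past it, 36 did not, and 44 moved by over 1.5 times. A fold given as "at least" is therefore a bound on the processed signal only. Counts over a list are to be read against 6.01% higher and 6.98% lower, or against the normexp shares where those are given. Of all 14057 genes, 6770 lay above 0 and 7287 below it. Counts of list members on 1 side of 0 are to be read against these.

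The higher genes were mostly dim. Of 4 equal bins of genes by mean level, the dimmest had 480 higher and 395 lower and the brightest 61 higher and 146 lower. Of 770 long noncoding RNA genes 23.5% were past 2-fold, 104 higher and 77 lower, against 12.3% of 13121 protein-coding genes. More of the noncoding calls are bounds, since only 533 of these genes were well above background on both arrays, against 11954 coding ones. Of those 533, 51 were higher and 34 lower, and of the 11954, 494 and 673. The dimmest bin above, with its 480 and 395, held 3515 genes of any kind. Whether level accounts for the noncoding share was not tested.

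**Figure D1:**
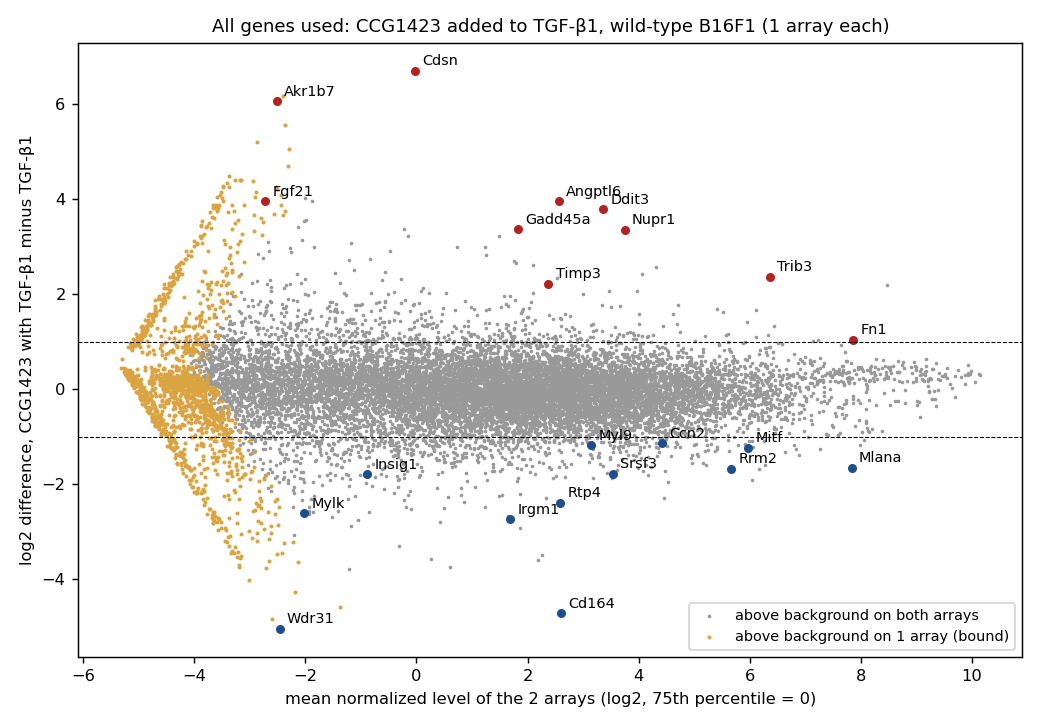
Log2 difference of each of 14057 genes, CCG1423 with TGF-β1 minus TGF-β1 (vertical), against the mean normalized level of the 2 arrays in log2 (horizontal). Grey points were well above background on both arrays, orange points on 1 of them, where the difference is a bound, and dashed lines mark 2-fold; the named genes are those of the text, from Cdsn at 6.70 to Wdr31 at -5.04.

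The array with CCG1423 had more genes at either end of the 5 arrays than any other array. It was the lowest of the 5 arrays for 4318 of 14057 genes (30.7%) and the highest for 3624 (25.8%). These genes were let in by their signal on the TGF-β1 or CCG1423 array, which favours high ranks there. Among the 12058 genes well above background on all 5 arrays, it lay 2-fold or more below all other arrays for 232 genes and above them for 140. The same counts were 139 and 37 for the vehicle array, 37 and 36 for clone 1, 23 and 63 for clone 2, and 1 and 13 for the TGF-β1 array. With the wider set of genes the counts above all others were 344 for CCG1423 and 150 for TGF-β1. Of the 845 genes higher with CCG1423, 780 had their highest level of the 5 arrays there, and of the 981 lower genes 661 had their lowest. The remaining lower genes had a level with CCG1423 that at least 1 other array matched or undercut. The genes were chosen from 1 of the 4 contrasts behind these ranks, so the ranks describe the arrays and are no second test.

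**Figure D2:**
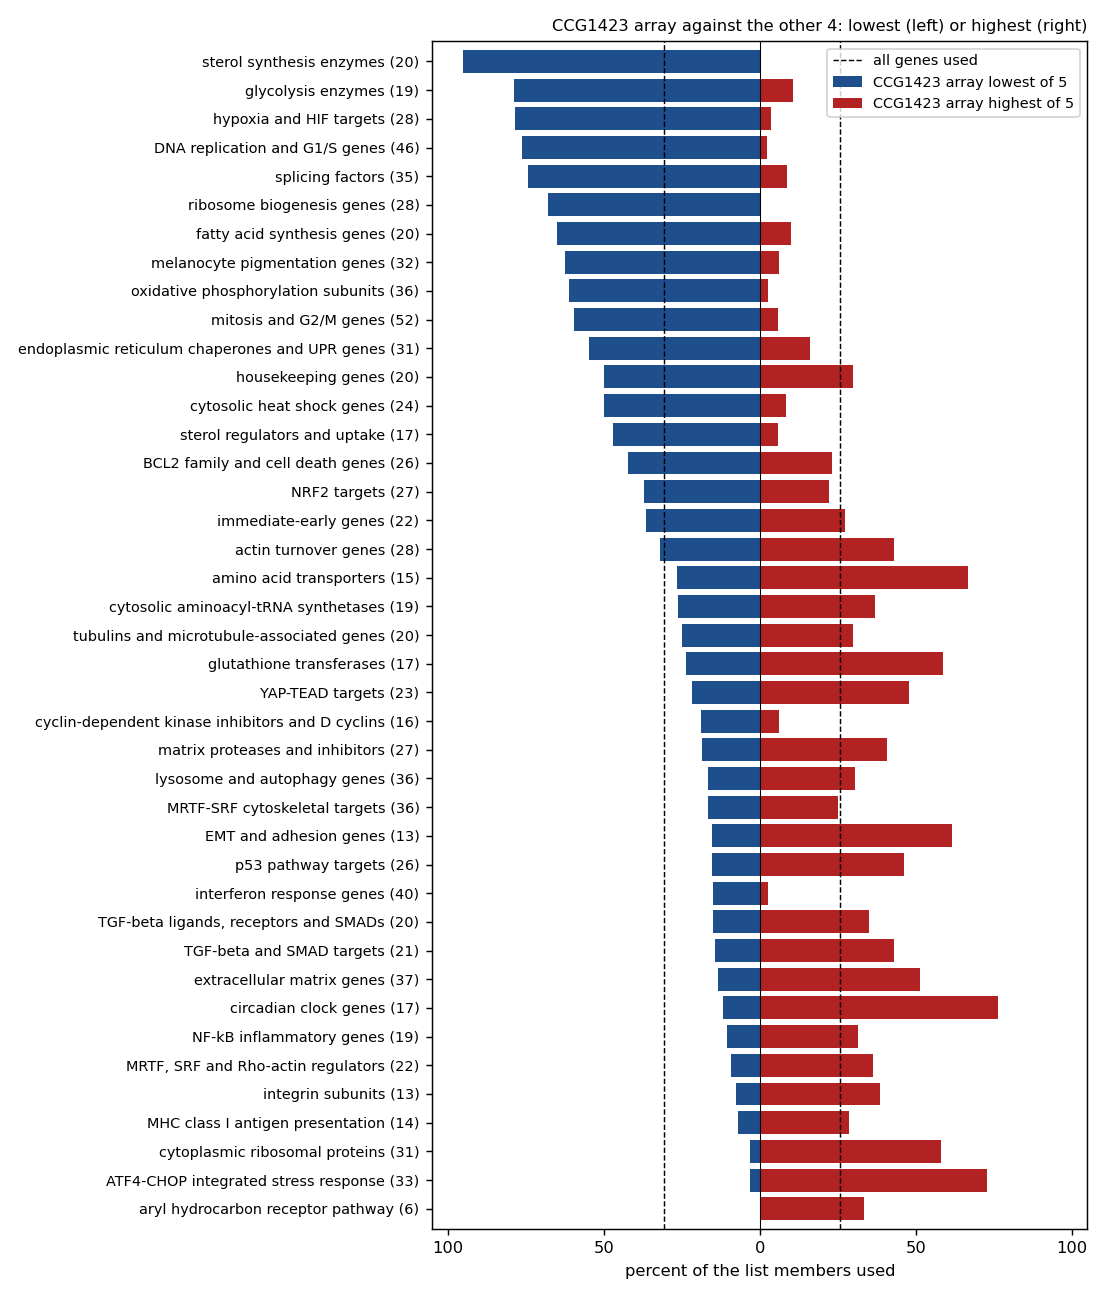
Percent of the used members of each list for which the CCG1423 array had the lowest (blue, to the left) or the highest (red, to the right) level of the 5 arrays, with the number of members in brackets. Dashed lines mark all 14057 genes at 30.7% and 25.8%. Sterol enzymes (19 of 20 lowest), clock genes (13 of 17 highest) and stress response genes (24 of 33 highest) lie far from those lines. Of the 33 stress response genes, 29 were well above background on both arrays compared. Entry by signal on the CCG1423 array favours a high rank there.

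The pathway that CCG1423 is meant to block was read first in its regulators. Mrtfa had a level of 4.03 with TGF-β1 and 3.87 with CCG1423, and its other probe differed by -0.39. Mrtfb, the second coactivator, stood at 3.56 and 2.93, though its 4 probes ran from -0.63 to 0.37. Srf, the DNA-binding partner of both, stood at 1.61 and 1.75. Neither the coactivators nor Srf reached 2-fold on any of these probes. Of 22 regulators used, out of 23 listed, 1 was higher and 1 lower. Ssh1, a phosphatase that activates the actin-severing cofilin, was 2.61-fold higher, with levels of -1.85 and -0.47 and both probes above 1, though normexp gave 0.92. Elk3, a partner of SRF that competes with MRTFs, was 2.14-fold lower, at 4.37 and 3.27, and its vehicle level was 3.0. Among the upstream GTPases, Rhoa differed by 0.20 and Rhoc by 0.33. Tmsb4x, the actin monomer-binding peptide that the series edits, stood at 7.12 with TGF-β1 and 6.79 with CCG1423, and its relative Tmsb10 at 9.17 and 9.24. Actin turnover genes had no member past 2-fold in 28 used, with Twf2, an actin monomer-binding twinfilin, at the low end (-0.92) and Capg, a filament capper, at the high end (0.56).

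Among 36 MRTF-SRF cytoskeletal targets used, out of 39 listed, 4 were 2-fold lower and 1 higher, beside 6.98% and 6.01% of all genes. Their median difference was -0.24, with 24 members below 0. A list of 20 housekeeping genes had a median of -0.21, with 11 members below 0. The 4 lower genes were Mylk, Myl9, Fblim1 and Fhl2, and they did not share 1 pattern over the series. With normexp Mylk and Myl9 stayed past 2-fold, Mylk at -1.29, while Fblim1 (-0.80) and Fhl2 (-0.20) did not. Mylk, the kinase that phosphorylates myosin light chain, had levels of -0.94 with vehicle, -0.71 with TGF-β1, -3.32 with CCG1423, -2.57 in clone 1 and -0.80 in clone 2. It was 6.08-fold lower with CCG1423 than with TGF-β1, its second probe was lower by 1.20 or more, and only the clone 1 array came near that level. Myl9, the myosin light chain itself, stood at 2.4, 3.73, 2.55, 2.20 and 1.74 in the same order. Its 2.27-fold difference put it next to the vehicle level, and both clones were lower still. Fblim1, a filamin-binding adaptor of focal adhesions, stood at -2.38, -0.09 and -1.26 on the vehicle, TGF-β1 and CCG1423 arrays, and the clones lay at -1.18 and -1.30. Fhl2, a LIM protein that binds SRF, was 2.19-fold lower at -2.56 and -3.69, above its vehicle level of -4.31.

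Most classical targets stayed within 2-fold. Acta2, smooth muscle actin, had 5.49 with TGF-β1 and 4.83 with CCG1423, and the other 3 arrays ran from 4.90 to 5.20. Actg1, cytoplasmic γ-actin, stood at 8.0 and 7.40, and 1 of its 3 probes differed by only -0.05. Vcl, the focal adhesion protein vinculin, stood at 3.41 and 2.99, Actb at 9.39 and 9.18, and Tagln, the SRF reporter gene transgelin, at -0.38 and -0.34. Vcl was lower in both clones (2.80 each) than with CCG1423. Some members lay on the other side of 0: Cnn2, a calponin, was at 2.79 and 3.38, and Myh9, nonmuscle myosin heavy chain, differed by 0.49. Cnn1 was not well above background on either array and gives no fold. Tgfb1i1, which encodes the LIM protein Hic-5, was the 1 member higher: it was well above background with CCG1423 (-1.33) and with vehicle (-2.30) but not with TGF-β1, and was at least 8.81-fold higher with CCG1423 (2.66-fold with normexp).

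YAP-TEAD targets overlap with this programme, since YAP also responds to actin tension. Of 23 used, 2 were higher and 1 lower. Ccn2, a matricellular growth factor, had levels of -0.80 with vehicle, 4.99 with TGF-β1 and 3.85 with CCG1423, a 2.20-fold difference that left it far above vehicle. Its relative Ccn1 went the other way, with 1.83, 3.06 and 4.17. Axl, a receptor tyrosine kinase linked to drug-tolerant melanoma states, stood at 2.30, 2.93 and 5.0, and at 1.72 and 1.63 in the clones. It was 4.20-fold higher with CCG1423 on 1 probe and by 1.97 on the log2 scale on the other. Yap1 itself stood at 5.53 and 5.12.

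**Figure D3:**
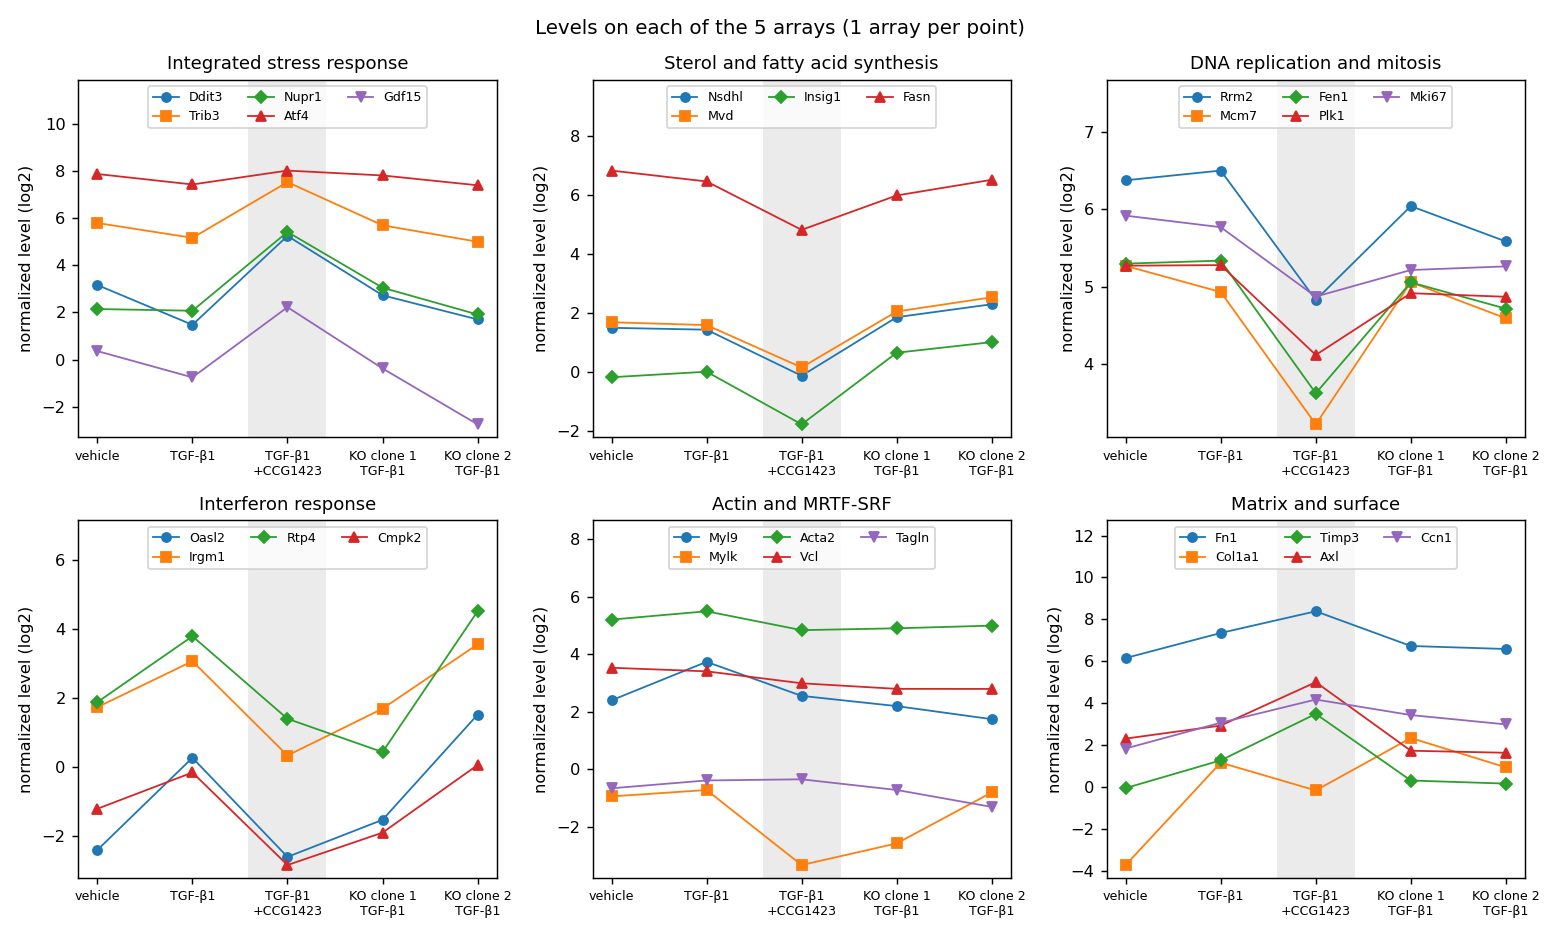
Normalized log2 level (vertical) of 28 named genes on each of the 5 arrays (horizontal), 1 array per point, with the CCG1423 array shaded; lines join the points of a gene and stand for no order. Stress genes such as Ddit3 (5.25) peak and sterol and replication genes such as Mcm7 (3.22) dip on the shaded array, while Myl9 (2.55) returns to near its vehicle level of 2.4.

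TGF-β components and targets lay on both sides of 0. Ligands, receptors and SMADs had 3 of 20 members higher and 0 lower. Tgfbr1 stood at 0.57 and 0.47, Tgfbr2 at 1.87 and 1.56 and Smad3, the receptor-activated SMAD, at 3.66 and 3.05. Tgfbr3, the coreceptor betaglycan, was 3.52-fold higher, from -0.85 to 0.96, and its other 3 levels lay between -0.64 and -0.20. Gdf15, a stress-responsive member of the ligand family, had levels of 0.36 with vehicle, -0.76 with TGF-β1, 2.22 with CCG1423, -0.38 in clone 1 and -2.76 in clone 2. It was 7.91-fold higher with CCG1423 than with TGF-β1. Tgfb1 was well above background only with CCG1423, at a low level of -3.18, and was at least 2.45-fold higher on 1 probe. Its lowest value over the settings tried was 0.76, and with normexp 2 members of this list were past 2-fold.

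Of 21 TGF-β and SMAD targets used, 4 were higher and 3 lower. The lower ones were Ccn2, Col1a1 and Col1a2. Col1a1, a chain of type I collagen, had a vehicle level of -3.74, a TGF-β1 level of 1.15 and a CCG1423 level of -0.17, and the clones held 2.33 and 0.93. Its 2 probes gave -1.33 and -1.36. Col1a2, the partner chain, stood at -2.44 and -3.49, below its vehicle level of -1.93. Smad7, the inhibitory SMAD, stood at -0.96, 1.62 and 1.16 on the vehicle, TGF-β1 and CCG1423 arrays, and Pmepa1, another feedback inhibitor, at 2.24, 6.29 and 5.68. Fn1, which encodes fibronectin, stood at 6.15, 7.35 and 8.38, with its 3 probes between 1.04 and 1.09. Tgif1, which encodes a repressor that binds SMADs, stood at 3.32 and 4.5, a 2.27-fold difference, though its second probe gave 0.73. Tgm2, a matrix cross-linking transglutaminase, was 7.97-fold higher (3.17-fold with normexp) at -3.34 and -0.34, and clone 2 lay at -0.75. Id1, an inhibitor of differentiation factors, was 2.15-fold higher, at -0.66 and 0.44.

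Genes whose TGF-β1 level was above the vehicle level were followed on the CCG1423 array. The classes below hold only genes well above background on the vehicle, TGF-β1 and CCG1423 arrays. Genes that fell to background with CCG1423 are thus left out of them. The 3 values of each gene are given as levels, since the TGF-β1 array serves in both contrasts and a chance high reading there would make its genes look higher in the first and lower in the second. Of 112 genes that TGF-β1 cells held at 4-fold or more over vehicle, 42 were 2-fold lower with CCG1423 and 2 higher, and 107 lay above their vehicle level. The vehicle, TGF-β1 and CCG1423 arrays had median levels of -1.64, 1.17 and 0.50 over these genes, and the clones 1.10 and 0.96. Of 282 genes 2- to 4-fold higher with TGF-β1, 97 were lower with CCG1423 and 13 higher, and 231 lay above vehicle. On the other side stood 138 genes 2- to 4-fold lower with TGF-β1, of which 35 were higher with CCG1423 and 6 lower. Thus most of the counted genes with a higher TGF-β1 level kept a level above vehicle in the presence of CCG1423. The filter on the CCG1423 array and the choice of genes by a low vehicle reading both favour that outcome.

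The next genes are the 15 with the largest TGF-β1 minus vehicle difference among those well above background on both of these arrays and with a mean level there above the median of the genes used. All 15 were above vehicle with CCG1423. Tnnt2, cardiac troponin T, had levels of -0.65, 5.78 and 4.89 with vehicle, TGF-β1 and CCG1423. Lims2, a focal adhesion adaptor, stood at -0.43, 4.89 and 4.33, and Serpinf1, a secreted serpin that restrains vessel growth, at 3.20, 6.27 and 5.71. Capg and Prkg2, a cGMP-dependent kinase, were above their TGF-β1 level, at 4.65 against 4.09 and at 3.83 against 3.26. Fancc, a member of the DNA crosslink repair complex, came closest to vehicle, at -0.11, 2.61 and 0.37, with its second probe lower by 1.89 or more, since it was not well above background with CCG1423. Rab15, a trafficking GTPase, stood at 0.20, 4.03 and 2.92, and Ak1, an adenylate kinase, at 2.38, 5.28 and 3.87. Genes with a lower mean level are not among these 15. One is Cda, the pyrimidine salvage enzyme cytidine deaminase, which lay at -3.76, 2.67 and 0.43 and was 4.71-fold lower with CCG1423.

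**Figure D4:**
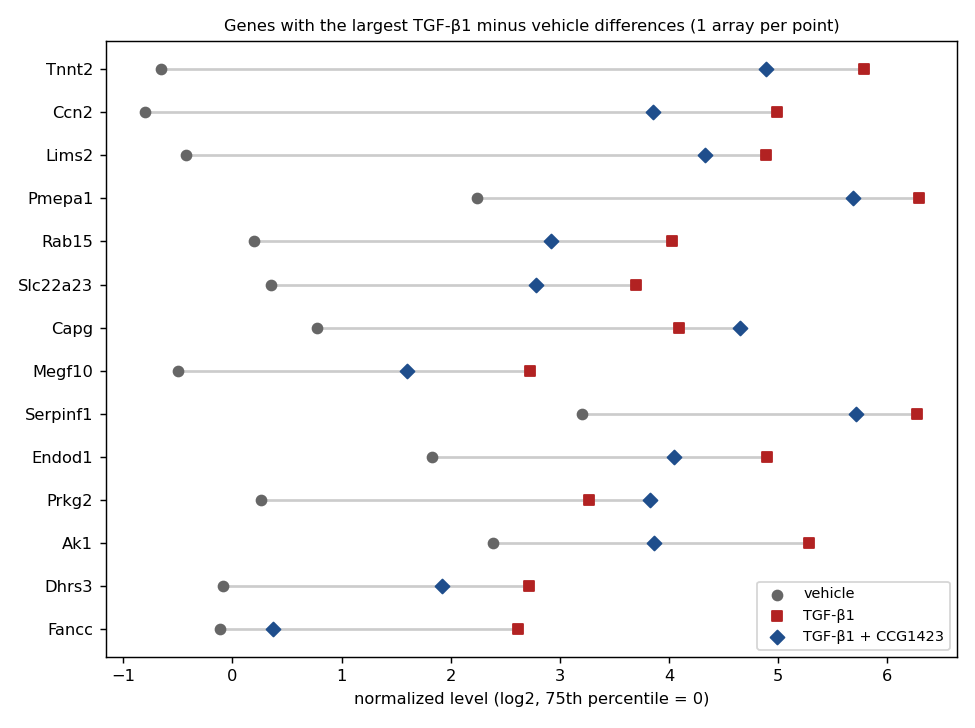
Normalized log2 level (horizontal) of 14 of the 15 genes with the largest TGF-β1 minus vehicle difference among those well above background on both arrays and above the median level, 1 point each for vehicle (grey circle), TGF-β1 (red square) and TGF-β1 with CCG1423 (blue diamond). The blue diamonds of these 14 lie to the right of the grey circles, from Fancc (0.37 against -0.11) to Tnnt2 (4.89 against -0.65).

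Matrix genes lay in both directions. Of 37 used out of 50 listed, 3 were higher and 6 lower, and 23 were above 0. The lower ones were Eln, Col8a1, Col1a1, Col1a2, Plod2 and Col5a2, which encode elastin, collagen chains and a collagen-modifying lysyl hydroxylase. Eln was well above background with TGF-β1 (-1.61) but not with CCG1423, at least 4.97-fold lower. With normexp 1 of the 6 lower matrix genes stayed past 2-fold: Eln came to -0.85, Col8a1 to -0.70 and Col1a2 to -0.13. Col8a1 stood at -2.79 with vehicle, -0.72 with TGF-β1 and -2.11 with CCG1423. The higher ones were Col5a3, Lama5 and Fn1. Lama5, a laminin chain of basement membranes, was 2.75-fold higher at 1.41 and 2.87, and its partner genes Lamb2 and Hspg2, the latter encoding perlecan, differed by 0.62 and 1.00. Col5a3, a minor fibrillar collagen chain, was 3.12-fold higher at -0.60 and 1.04, and clone 2 lay at -3.44.

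Matrix proteases and their inhibitors had 5 of 27 members higher and 5 lower. Timp3, a matrix-bound inhibitor of metalloproteinases, had levels of -0.06, 1.26, 3.48, 0.30 and 0.15 on the vehicle, TGF-β1, CCG1423 and clone arrays. Its 4.66-fold difference was matched by the second probe at 2.42. Ctsl, a lysosomal cathepsin, was 2.67-fold higher (5.24 and 6.65), and Mmp11 and Mmp19, secreted metalloproteinases, were 2.75-fold and 2.97-fold higher. Mmp2, the gelatinase, was 2.18-fold lower (-1.25 and -2.37), Mmp15, a membrane-bound member, 2.16-fold, and Adam8, a sheddase, 2.76-fold. None of the 5 lower members stayed past 2-fold with normexp, where Mmp2 came to -0.45, Mmp15 to -0.48 and Adam8 to -0.34, while 4 of the 5 higher ones did. Mmp14, the membrane activator of Mmp2, stood at 1.84 and 1.58. Mmp9 was not well above background on either array.

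Among 13 adhesion and mesenchymal genes used, out of 25 listed, 2 were higher and 1 lower. Cdh11, a mesenchymal cadherin, was 2.63-fold higher at 1.38 and 2.77, with its second probe at 0.89. Cdh2, N-cadherin, stood at 4.98 and 4.13, the latter equal to its vehicle level of 4.13 at this rounding. Vim differed by 0.01, and Cdh1 and Snai1 were not well above background on either array. S100a4, a calcium-binding protein of motile cells, stood at 6.49 and 5.33, while the clones lay at 4.36 and 1.89. Of 13 integrin subunits 2 were higher, Itga7 (3.03-fold) and Itgb3 (2.06-fold, with the other probe at 0.21), neither of which stayed past 2-fold with normexp (0.78 and 0.94), and Itgav and Itgb1 differed by -0.02 and 0.32.

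**Figure D5:**
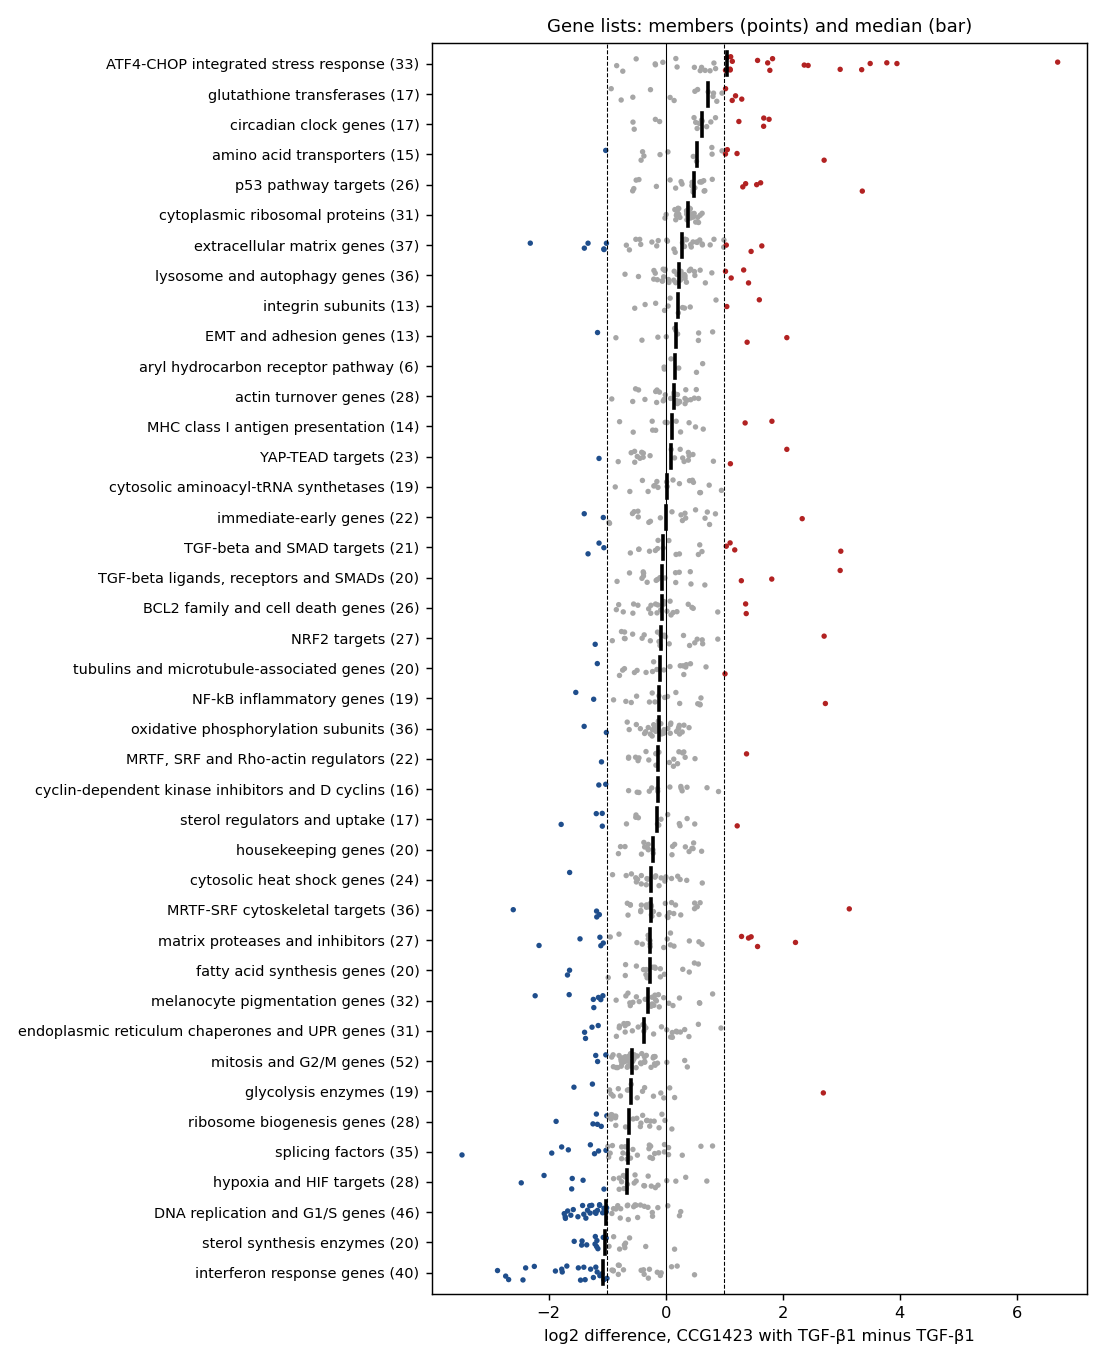
Log2 difference, CCG1423 with TGF-β1 minus TGF-β1 (horizontal), of every used member of each gene list (points, red or blue past 2-fold) with the list median as a bar and the number of members in brackets. Medians run from 1.05 for the integrated stress response to -1.07 for interferon response genes, against -0.03 for all genes; points scatter vertically only to be seen.

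The highest list median belonged to the integrated stress response. In that response a kinase phosphorylates the initiation factor eIF2, general protein synthesis slows, and the transcription factors ATF4 and CHOP, the latter encoded by Ddit3, act on genes of amino acid supply, redox balance and cell death. Of 33 members used, out of 36 listed, 18 were higher and 0 lower, with a median of 1.05 (14 and 0 with normexp, median 0.96). The 29 members well above background on both arrays had a median of 1.02. Ddit3 had levels of 3.17, 1.47, 5.25, 2.73 and 1.70 on the vehicle, TGF-β1, CCG1423, clone 1 and clone 2 arrays. Trib3, a pseudokinase that CHOP switches on, stood at 5.80, 5.17, 7.54, 5.71 and 5.01, a 5.17-fold difference. Nupr1, a small stress-induced chromatin protein whose promoter is shown above, stood at 2.15, 2.07, 5.42, 3.05 and 1.91, a 10.2-fold difference. All 3 had their highest level of the series with CCG1423. Atf4, which is regulated mostly at translation, differed less, at 7.44 and 8.03.

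The members of this list lay at very different distances. Cdsn, which encodes the skin adhesion protein corneodesmosin and was placed in the list as a stress-responsive gene, had the largest difference of all genes well above background on both arrays. Its levels were -2.46 with vehicle, -3.38 with TGF-β1, 3.33 with CCG1423, -3.25 in clone 1 and -3.77 in clone 2, a 104-fold difference from 1 probe (33.8-fold with normexp). Fgf21, a stress hormone with the CHOP-ATF4 letters shown above, was not well above background with TGF-β1 and stood at -0.52 with CCG1423, at least 15.5-fold higher. Soat2, a cholesterol-esterifying enzyme, was at least 11.3-fold higher on the same basis. With normexp these came to 3.77-fold for Fgf21 and 3.14-fold for Soat2. Chac1, which degrades glutathione, differed by 1.57, Ppp1r15a, the phosphatase subunit that ends eIF2 phosphorylation, by 1.74, Atf3 by 1.78 and Cth, the enzyme that makes cysteine from cystathionine, by 1.83. Asns, asparagine synthetase, stood at 5.56 and 6.66, and Psph, the last enzyme of serine synthesis, at 3.62 and 4.73. The other serine enzymes stayed close, with Phgdh at 0.20 and Psat1 at -0.05. Ddit4 (-0.50) and Trib1 (-0.84) lay on the lower side.

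Amino acid transporters lay mostly on the higher side among those past 2-fold. Of 15 transporters 4 were higher and 1 lower. Slc7a11, the cystine importer, was 6.54-fold higher (-2.57 and 0.14, 3.86-fold with normexp). Slc6a9, a glycine transporter, was 2.33-fold higher, Slc43a2, a neutral amino acid transporter, 2.08-fold, and Slc1a5, the glutamine importer, 2.03-fold. Slc38a2, which imports small neutral amino acids, was 2.03-fold lower, at 3.61 and 2.59. With normexp 2 of the 15 transporters were higher and 1 lower. Cytosolic aminoacyl-tRNA synthetases had 0 of 19 members past 2-fold, with Wars (0.95) and Sars (0.74) at the top and Farsb (-0.86) at the bottom. Prodh, the mitochondrial enzyme that begins proline breakdown, was 4.89-fold lower, with levels of 3.69, 5.61, 3.32, 5.74 and 4.68 on the 5 arrays.

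Chaperones of the endoplasmic reticulum lay on the other side from the CHOP genes. Of 31 used 0 were higher and 4 lower, with a median of -0.37. Sdf2l1, Creld2 and Manf, secretory chaperones typical of the unfolded protein response, stood at 3.03 and 1.64, at 5.74 and 4.37, and at 4.44 and 3.29. Calr, the calcium-binding lectin chaperone, was 2.39-fold lower at 6.03 and 4.78. Hspa5, the main chaperone of that compartment, differed by -0.57 with its 3 probes between -0.63 and -0.57. Hsph1, a cytosolic co-chaperone, was 3.12-fold lower and was the 1 member of 24 heat shock genes past 2-fold.

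Targets of p53 had 5 of 26 members higher and 0 lower (3 and 0 with normexp). Gadd45a, which slows the cell cycle after damage, had levels of 1.00, 0.16, 3.52, 0.45 and 0.60 on the 5 arrays, a 10.3-fold difference. Plk2, a polo-like kinase, was 3.08-fold higher, Ddb2, a damage-recognition protein, 2.94-fold (1.75-fold with normexp), and Bbc3, the cell death gene that encodes PUMA, 2.58-fold. Perp, a desmosome protein, was well above background with CCG1423 alone, at least higher by 1.32 on the log2 scale. Cdkn1a, the p21 inhibitor of cyclin-dependent kinases, stood at 3.94 and 3.49, with a second probe at -1.13, and Mdm2 differed by 0.58. Of 26 cell death genes 2 were higher (7.69%, near the share of all genes), Bbc3 and Bok, and 0 lower.

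Sterol synthesis enzymes were lower nearly throughout. SREBP-2 is the factor that switches these enzymes on when membranes run short of cholesterol. Of 20 enzymes used, 11 were lower and 0 higher (10 and 0 with normexp), the median was -1.04, and 19 had their lowest level of the 5 arrays with CCG1423. Nsdhl, a late enzyme of the pathway, stood at 1.5, 1.43, -0.13, 1.86 and 2.30 on the vehicle, TGF-β1, CCG1423, clone 1 and clone 2 arrays, and Mvd, which makes isopentenyl diphosphate, at 1.69, 1.59, 0.15, 2.05 and 2.53. The vehicle and TGF-β1 levels of each of these genes were close to each other, and the clone levels were above them. Tm7sf2, a sterol reductase, was the 1 enzyme above 0, at 0.15.

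Sterol regulators and uptake genes were lower in part, 4 of 17 with 1 higher. Insig1, which holds the SREBP complex in place, was 3.45-fold lower (2.16-fold with normexp) at 0.01 and -1.78. Stard4, a sterol carrier, was 2.12-fold lower. Srebf1 was 2.28-fold lower and Srebf2 differed by -0.67. Nr1h3, the sterol-sensing receptor LXRα, was at least 2.33-fold higher, a call that normexp ended (0.57). In fatty acid synthesis, Fasn stood at 6.46 and 4.82 and Scd2, a desaturase, at 7.0 and 5.33, the 2 members of 20 past 2-fold, while Acaca, the first committed enzyme, differed by -0.50.

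DNA replication genes were the next group with many lower members. Of 46 used 24 were lower and 0 higher, with a median of -1.01 (20 and 0 with normexp, median -0.96). Rrm2, the ribonucleotide reductase subunit made in S phase, had levels of 6.38, 6.50, 4.83, 6.04 and 5.59 on the 5 arrays. Mcm7, a subunit of the replicative helicase, stood at 5.27, 4.93, 3.22, 5.06 and 4.59, and Fen1, the flap nuclease, at 5.30, 5.34, 3.62, 5.06 and 4.71. The differences from TGF-β1 were 3.19-fold, 3.28-fold and 3.29-fold. All 3 genes were also somewhat lower in clone 2 than with vehicle. The helicase subunits Mcm3 (-1.21), Mcm4 (-1.30), Mcm5 (-1.36) and Mcm6 (-1.04) were lower together, while Mcm2 differed by -0.55. Cdc6, which loads the helicase, differed by -1.62 and Orc1, of the origin complex, by -1.40. Tyms and Tk1, which supply thymidylate, differed by -1.5 and -1.42.

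Mitotic genes were lower by less. Of 52 used 3 were 2-fold lower and 0 higher, but 49 lay below 0, with a median of -0.58. Among all 14057 genes, 7287 lay below 0. Plk1, a mitotic kinase, stood at 5.28 and 4.12, Kif11, a spindle motor, at 0.61 and -0.58, and Mki67, the proliferation marker, at 5.77 and 4.87. Ccnd1, the cyclin of G1 entry, had levels of 4.90, 3.76 and 2.73 on the vehicle, TGF-β1 and CCG1423 arrays, and clone 1 lay at 2.67. Rbl1, the pocket protein p107, was 2.21-fold lower, although its 3 probes ran from -1.14 to 0.78. In bulk RNA fewer cells in a phase and less RNA per cell cannot be told apart.

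Genes for making ribosomes lay mostly below 0 and those for ribosomal proteins above it. Of 28 ribosome biogenesis genes 6 were lower and 27 lay below 0, with a median of -0.62. Ddx21, a nucleolar helicase, stood at 2.76 and 0.89, a 3.66-fold difference. Polr1a and Polr1b, the large subunits of RNA polymerase I, were 2.27-fold and 2.37-fold lower, and Nop56, a core protein of the small nucleolar RNA complexes, 2.25-fold. Clone 1 also had low levels of Polr1a (2.69) and Ddx21 (2.02). By contrast 30 of 31 ribosomal protein genes lay above 0, between -0.01 and 0.62, with a median of 0.38 and none past 2-fold.

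Splicing factors had 8 of 35 members lower and 0 higher, with a median of -0.65. Srsf3, an SR protein, had levels of 4.45, 4.43, 2.65, 4.45 and 4.12 on the 5 arrays, with a second probe at -1.47. Srsf6 stood at 4.83 and 3.16 with both probes at -1.66, and Hnrnpm at 5.50 and 3.55 with its second probe at -1.35. Sfpq, a paraspeckle protein, was 11.2-fold lower on its brightest probe (4.0 and 0.52), but its 3 probes ran from -3.48 to -0.05. Clk1 and Clk4, kinases that phosphorylate SR proteins, lay on the higher side at 0.80 and 0.60. Probes of 1 gene can report different transcripts: of 5189 genes with several used probes, 868 had at least 1 past 2-fold, 222 had all of them past it in 1 direction, and 15 had probes past it in opposite directions. Arhgap21, a GTPase activator, is such an uneven case, with -3.59 and -0.12.

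Interferon response genes had the lowest median, -1.07, with 22 of 40 members lower and 0 higher (14 and 0 with normexp, median -0.80). Sterol enzymes (-1.04) and replication genes (-1.01) lay close to it. With normexp both of those lists lay below the interferon list, at -0.98 and -0.96. Yet the interferon genes were not the lowest of the series, since only 6 of the 40 had their lowest level with CCG1423. Oasl2, an antiviral sensor-family protein, had levels of -2.42 with vehicle, 0.26 with TGF-β1, -2.62 with CCG1423, -1.54 in clone 1 and 1.51 in clone 2. Cmpk2, a mitochondrial nucleotide kinase, stood at -1.22, -0.17, -2.85, -1.91 and 0.05, and Irgm1, an immunity-related GTPase, at 1.73, 3.06, 0.32, 1.68 and 3.55 with its 3 probes between -2.89 and -2.69. Over the list, the vehicle and TGF-β1 arrays had median levels of -0.22 and 0.82, the CCG1423 array -0.10, and the clones -0.91 and 1.98. It thus lay near vehicle with CCG1423, and the 2 clones differed from each other by a median of 2.25, more than CCG1423 differed from TGF-β1. Genes of MHC class I presentation had 2 of 14 higher, Tap2 (2.56-fold) and Nlrc5 (at least 3.52-fold), neither of them past 2-fold with normexp (0.76 and 0.65), while H2-K1 and B2m differed by -0.17 and 0.40. Among 19 inflammatory genes Ccl2, a monocyte chemokine, was 2.35-fold lower and Icam1 at least 2.90-fold lower (-0.96 and -0.32 with normexp). Il11, a cytokine of fibrosis, was 6.64-fold higher (3.87-fold with normexp), at -2.19 and 0.54, with -0.86 in clone 1.

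Hypoxia and HIF targets had 6 of 28 members lower and 0 higher, with a median of -0.66, and 22 had their lowest level of the series with CCG1423. Egln3, an oxygen-sensing hydroxylase, had levels of 0.61, 1.41, -0.66, 2.26 and 0.75. Bnip3, a mitophagy receptor, stood at 7.11, 7.08, 5.48, 8.16 and 7.76, and Egln1, the main oxygen sensor, at 5.99, 6.01, 4.41, 6.49 and 6.16. For all 3 genes clone 1 had the highest level of the 5 arrays. Adm, which encodes the vasodilator adrenomedullin, was well above background on every array but that with CCG1423, at least 5.53-fold below TGF-β1 (1.96-fold with normexp). Hif1a itself differed by -0.72. Of 19 glycolysis enzymes 2 were lower and 1 higher, and 16 lay below 0, with a median of -0.59 (5 lower and 1 higher with normexp). On the CCG1423 array 15 of them had their lowest level of the series. Pfkl, a phosphofructokinase, was 2.96-fold lower and Hk2, a hexokinase, 2.38-fold, while Gapdh and Aldoa differed by 0.15 and -0.03. Eno2, the neuronal enolase, went the other way at 1.63, 0.41, 3.11, 1.52 and 1.11, a 6.48-fold difference. Oxidative phosphorylation subunits differed little, with 2 of 36 lower, Uqcrh of complex III (2.63-fold) and Sdhd of complex II (2.02-fold). Yet 22 of these 36 also had their lowest level of the series with CCG1423. The same held for 10 of 20 housekeeping genes and for 30.7% of all genes.

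Pigment cell genes past 2-fold were all lower, and the lineage markers stayed well above background. All 10 melanocyte identity markers were well above background on both arrays, 3 of them were 2-fold lower, and their summed level was 11.22 with TGF-β1 and 10.82 with CCG1423. Mitf, the master factor of the lineage, had levels of 6.59, 6.59, 5.36, 6.80 and 6.89 on the 5 arrays, with its 3 probes between -1.23 and -0.94. Mlana, a melanosome protein and MITF target, stood at 7.98, 8.66, 7.01, 8.98 and 9.07, a 3.14-fold difference. Tspan10, a tetraspanin of pigment cells, stood at 3.37, 1.92, -0.31, 3.14 and 3.72, so that its TGF-β1 level lay below vehicle and its CCG1423 level below both. Rab27a, which carries melanosomes, was 2.36-fold lower, with its second probe at -0.47, and Gpr143, a melanosome receptor, 2.16-fold. Mc1r, the melanocortin receptor, differed by -1.15. Dct, Pmel and Tyrp1, which encode enzymes and the scaffold of the melanosome, differed by -0.17, -0.23 and -0.25, and Sox10 by -0.16. In the full list of 32 pigmentation genes 7 were lower and 0 higher.

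Markers of other cell types were read for the whole of each list. None of 11 fibroblast markers was well above background on either array, and 2 of 11 endothelial markers were. For 7 immune markers used, out of 18, the summed level was 5.24 with TGF-β1 and 5.54 with CCG1423, and 5.21 to 5.54 on the other arrays. Fcer1g, an immune receptor chain, was 4.53-fold lower (0.69 and -1.49, 2.82-fold with normexp) and Cd68, a lysosomal protein of macrophages, 2.82-fold higher. Of 7 muscle markers used, out of 17, 3 were higher and 0 lower, with a median of 0.52, and 2 stayed past 2-fold with normexp. The higher ones were Myh6, a cardiac myosin, at least 18.5-fold on its brightest probe, Tnnt3, a fast troponin T, 4.40-fold, and Des, which encodes desmin, 2.45-fold. With normexp these came to 3.95-fold, 2.11-fold and 1.54-fold. The second Myh6 probe was not well above background with CCG1423 and can be higher by at most 0.12 on the log2 scale. The summed muscle level, of which Tnnt2 at 5.78 and 4.89 is a part, was 0.87 with vehicle, 5.81 with TGF-β1 and 5.0 with CCG1423. Epithelial markers had 5 of 12 used, and summed levels of 3.16 and 3.98. The part of other cell types in the differences above was not tested.

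Several smaller groups lay on the higher side. Clock genes had 4 of 17 members higher and 0 lower, with a median of 0.61, and 13 had their highest level of the series with CCG1423. Dbp, a clock output factor, had levels of 2.89, 2.46, 4.23, 2.92 and 2.36, and its 2 probes gave 1.77 and 1.82. Nr1d1, a repressor of the loop, stood at -1.93 and -0.25, and Nfil3, which opposes Dbp, at 2.60 and 3.85. Per2 differed by 0.85 and Arntl, which encodes BMAL1, by -0.56. Lysosome and autophagy genes had 4 of 36 higher (11.1%), 3 of them with normexp: Ctsl, Gabarapl1 (2.52-fold), Map1lc3a (2.17-fold) and Sqstm1 (2.03-fold), the last 3 encoding autophagy proteins. Tfeb, the factor that controls lysosome genes, differed by -0.06.

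Glutathione transferases had 4 of 17 members higher and 0 lower, with a median of 0.73 (2 and 0 with normexp, median 0.56). Gstm1 had levels of 3.39, 2.15 and 3.45 on the vehicle, TGF-β1 and CCG1423 arrays, and of 2.03 in each clone. Gstm3 stood at 4.14, 2.93, 4.06, 2.81 and 2.95. Both genes were thus near their vehicle level with CCG1423 and near their TGF-β1 level in the clones. NRF2 targets, which share the handling of oxidants, had 1 of 27 higher, Slc7a11, and 1 lower, Pgd, an enzyme of the pentose phosphate pathway (2.30-fold). Nqo1 differed by 0.63 and Hmox1 by -0.04. The aryl hydrocarbon receptor targets Cyp1a1 and Cyp1b1 were not well above background on either array. Immediate-early genes had 1 of 22 higher and 2 lower. Klf4, a zinc finger factor of growth arrest, stood at 1.56, 1.37, 3.70, 1.34 and 0.90, a 5.04-fold difference. Maff, a small Maf protein, was 2.62-fold lower and Dusp6, a phosphatase that limits ERK, 2.09-fold, while Fos differed by -0.47 and Myc by -0.97.

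The largest differences outside the lists came from genes with low levels on the other arrays. Tmem252, a membrane protein, had a level of 1.69 with CCG1423 while no other array called it well above background, which puts it at least 71.8-fold above TGF-β1. Akr1b7, an aldose reductase-like enzyme, had 1.58 and the same pattern, at least 66.4-fold. Wdr31, a WD-repeat protein, was the reverse, with 1.12 on the TGF-β1 array alone and at least 33.0-fold lower with CCG1423. These rest on 1 probe each, and normexp gave 13.1-fold, 12.4-fold and 7.49-fold for the 3 genes. Among brighter genes, Angptl6, a secreted angiopoietin-like protein, stood at 1.85, 0.58, 4.54, 1.88 and 0.08, and Cyb5r2, a cytochrome b5 reductase, at 0.49, -0.12, 3.1, 0.85 and -0.98, with its second probe at 3.47. Steap1, a metalloreductase, was 6.12-fold higher, Zfr2, an RNA-binding zinc finger protein, 6.31-fold, and Phyhd1, an oxygenase, 5.94-fold with its second probe at 2.64. Il4i1, an amino acid oxidase, was 7.91-fold higher, and Nnmt, a nicotinamide methyltransferase, 7.03-fold, though its second probe gave 0.85. On the lower side Cd164, a sialomucin, stood at 4.77, 4.96, 0.25, 4.85 and 5.15, a 26.2-fold difference from 1 probe. Mcc, a colorectal tumour suppressor candidate, stood at 2.61, 3.33, 0.40, 2.41 and 3.14, and Cmss1 at 3.33, 2.96, 0.76, 2.95 and 2.46.

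Among noncoding genes well above background on both arrays, Nctc1 was 16.3-fold higher (-4.02 and 0.01) and G630055G22Rik 11.8-fold (-3.77 and -0.21). Pldi and 1700026J14Rik were 10.6-fold and 8.76-fold higher, and 2410006H16Rik had levels of 3.19, 2.84, 5.27, 3.39 and 2.62. With normexp Nctc1 came to 4.10-fold, G630055G22Rik to 3.55-fold, Pldi to 3.40-fold and 1700026J14Rik to 2.73-fold. The lower ones include short structural RNAs. Rpph1, the RNA of the nuclease that trims transfer RNAs, stood at 2.52, 2.99, 0.33, 2.51 and 2.61, a 6.32-fold difference. Snora78, a small nucleolar RNA, was 5.56-fold lower (2.14-fold with normexp) and Scarna13, a Cajal body RNA, 4.18-fold. Of 10814 probes that could not be given a gene name, 968 were higher and 690 lower (15.3% in either direction). Over all 31509 probes used, 2188 were higher and 2047 lower (13.4%). Of the unnamed calls, 549 higher and 370 lower were well above background on both arrays, and the rest are bounds.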

How the data were processed

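RNA of 5 B16F1 cultures was read on 5 Agilent 1-colour (Cy3) arrays. Per the file headers these shared a slide and a scan, which leaves no batch to test. The values used are intensities, the processed signal of Agilent Feature Extraction 12.0.3.1, which subtracts local background and removes spatial trends inside an array but does not normalize across arrays, per the file headers and the submitters' processing notes. The flags for outlier spots and for signals well above background are that software's too, per the file headers. The deposited values of the series are these intensities times 1 constant per array, as a match of the columns to the scanner values showed: the log2 constant was 0.12 for TGF-β1 and 0.34 for TGF-β1 with CCG1423. Their column medians were 26.9 (vehicle), 29.2 (TGF-β1), 27.5 (CCG1423), 23.2 (clone 1) and 28.8 (clone 2). They are linear, uncentred and run with the intensity, and how the constants were set is unknown.

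Control spots (3671 of 62976) and outlier spots (107 to 141 an array) were dropped, log2 signals of repeat spots of a probe were averaged, and 10 probes with no usable spot on some array were removed. Repeat spots of 1 probe had a median SD of 0.04 on both arrays compared, which covers the array and not the culture. From 48.2% to 53.8% of an array's probes were well above background, with 0 spots saturated. The 75th percentile was a signal of 294 with TGF-β1 and 230 with CCG1423. RefSeq accessions were looked up among RefSeq genes of GRCm38.p6, which named 32988 probes and left 23607 without a name. A gene was read from its brightest probe over the 5 arrays. Where 1 array alone was well above background, the dim side took the lowest signal called well above background on its array, or its own if higher, and the fold is given as "at least".

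The comparison, the 48 gene lists and the rules were chosen with earlier results of these data known. By rule the text draws on 15 genes each way above the median level and well above background on both arrays, 6 bounds and 5 noncoding genes each way, up to 4 list members past 2-fold each way, a set of MRTF, TGF-β and marker genes, and the 15 largest TGF-β1 differences. Further list members are examples picked with their values seen. Some genes that the rule names are not reported here. Alternatives were normexp (on the median spot signal, a mean spot signal not being used here), other scalings, the deposited values, other filters and floors, the mean over probes, outlier spots kept, and limma 3.58.1 in R 4.3.3. The 2-fold rule and limma were tested on simulated data. Python 3.11.15, numpy 2.4.6, pandas 2.3.3 and matplotlib 3.10.9 did the rest.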

Additional observations from a re-analysis of the deposited data

How the results depend on the processing

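The counts of genes past 2-fold moved with the treatment of dim genes. Normexp background correction gave 354 genes higher and 517 lower, and 783 and 869 probes in place of 2188 and 2047. Without a filter on dim genes 1528 were higher (1336 lower), with 4091 and 3075 probes, and with both arrays well above background 549 genes and 1390 probes were higher. With limma and the spread of the 2 clones, on the assumption that single arrays vary like them, 123 genes were higher and 156 lower at an adjusted p under 0.05, which counts genes against the distance between 2 clones and is no replicate test of either array. Over all pairs of a list and a setting, 411 medians stayed within 0.392 of the main value, the robust SD of the differences between the clones, and 2 did not. Neuron and glia markers went from -0.10 to 0.35 without the filter, and epithelial markers from 0.23 to -0.48 without the floor. Some list medians near 0 changed sign, among them those of TGF-β components, TGF-β targets, YAP targets, matrix proteases and immediate-early genes. Over all pairs of a named gene and a setting, 63 lost the 2-fold call, 4 gained it, 3 values without a call moved, and 1706 kept their side. No paired analysis was possible because each side of the comparison has 1 array. Leaving out a replicate could not be tried for the same reason, and the cause of these shifts was not tested beyond the settings themselves.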
